A study of Mus musculus with 6 samples.

Results

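p53, encoded by Trp53, is a transcription factor that is stabilised when DNA is damaged. Ionising radiation breaks DNA, and damage kinases then release p53 from its inhibitors Mdm2 and Mdm4. The freed protein switches on genes for cell cycle arrest, cell death, DNA repair and metabolism, and also Mdm2 and Ppm1d, whose products shut the response down again. Bone marrow is among the tissues in which this pathway responds most readily to radiation. The 34 genes described here are p53 itself, its regulators and a list of its direct targets, chosen by name from the 43346 genes in the deposited table. Inhibitors of cyclin-dependent kinases, death receptors and the Bcl2 family were left out of the 34 by that choice. It used no measured value, but it was made with earlier results of these data known.

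RNA-seq gene counts came from the femurs of C57BL/6 mice, a common inbred strain, aged 4 months. A single image-guided X-ray dose of 24 Gy, given at 6.6 Gy per minute, was aimed at 5 mm of the distal metaphysis of the right femur, the widened end of the bone near the knee, which holds marrow. The left femur was not radiated and served as the control, so the groups were 3 radiated and 3 non-radiated libraries, with no genetic change in either. All bones were taken on day 21, ahead of the bone loss seen on day 28, and muscle was removed before the bone was homogenised. The control leg belonged to an animal that had itself been radiated elsewhere, and the labels do not say which 2 libraries came from 1 mouse, or that the replicates were separate mice. The p-values therefore measure the spread between these libraries.

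The libraries held 34034251 to 48708383 gene counts, and the 34 genes together held 46458 to 104713 counts per library. In non-radiated library 2 a single row, AY036118, took 32.9% of the counts, against 0.321% to 5.61% in the other 5 libraries. Levels are given as CPM, counts relative to library size, scaled by the trimmed mean of M-values (TMM), so a change is relative to the bulk of genes. All 10 bone markers were detected in every library, with summed levels of 8258 to 12538 CPM in non-radiated and 6081 to 7879 CPM in radiated libraries. These are pieces of bone with many cell types, and fewer cells of a type cannot be told apart from less RNA per cell.

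On day 21, 11 of the 34 genes were higher in radiated femur and none was lower. Phlda3 rose 4.98-fold, Zmat3 2.12-fold and Ephx1 2.10-fold, and the other 8 rose 1.25-fold to 1.85-fold. The 11 are 32.4% of the list, against 4.56% of all 18757 genes tested that were called higher (edgeR's quasi-likelihood test, Benjamini-Hochberg adjusted p under 0.05 over all genes). Called lower were 0 of 34 with edgeR, DESeq2 and limma-voom, against 3.24% of all genes with edgeR (7.8% were called in either direction), and 1 of the 34, Perp, was lower at an unadjusted p under 0.05. The log2 fold change was positive for 24 of the 34 genes (70.6%), against 50.5% of all genes, and its median was 0.12, against 0.00 over all genes. All 34 passed the filter on low counts. The 2 groups were fully separated for 16 genes that were higher in radiated femur (47.1%), against 14.4% of all genes, and for 3 that were lower, against 11.5% (25.9% in either direction).

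**Figure D1:**
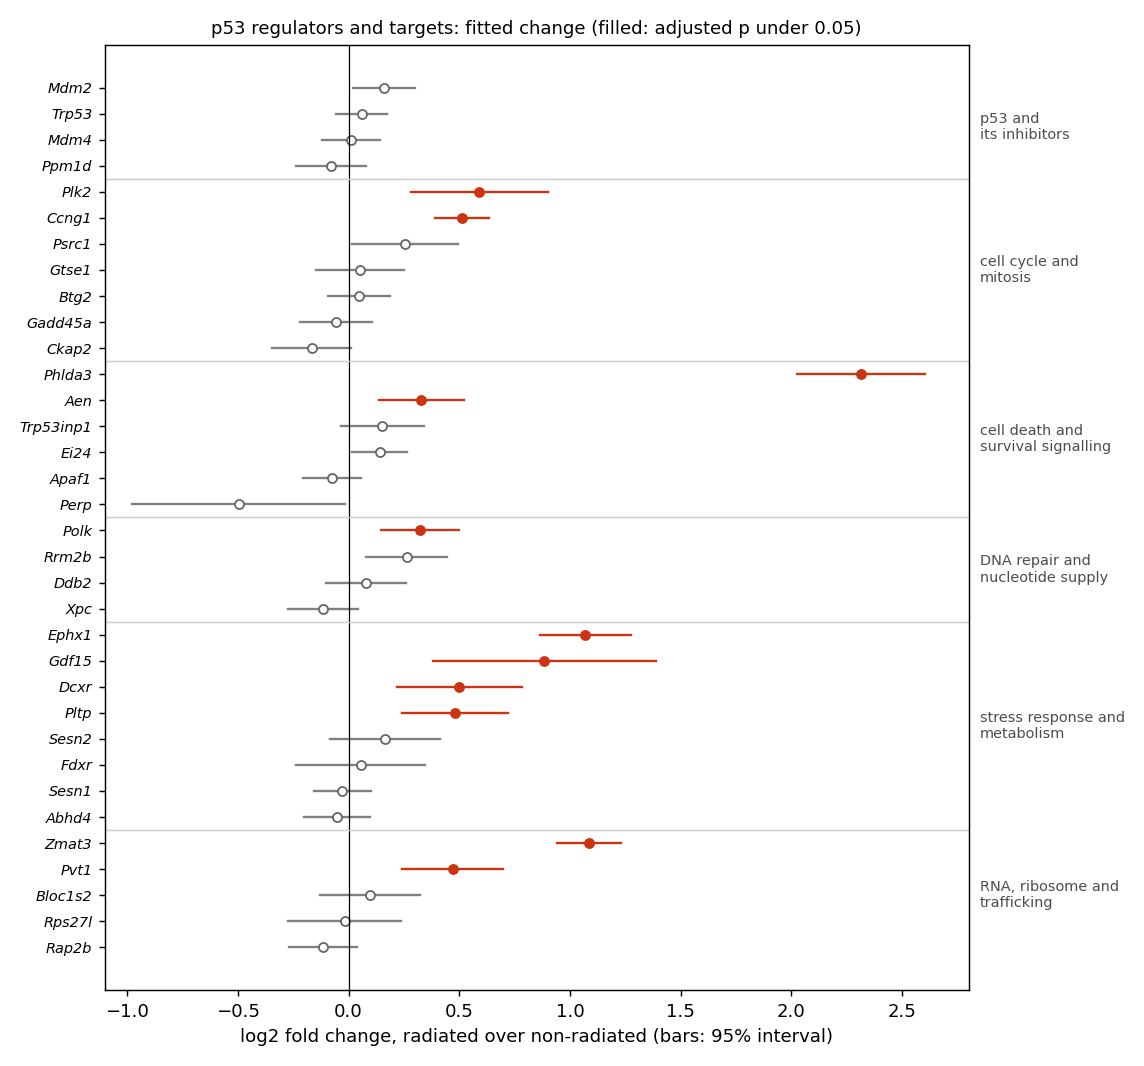
Log2 fold change of each of the 34 genes, radiated over non-radiated (x axis), with its 95% interval, grouped by role. Filled points have an adjusted p under 0.05. Phlda3 stands at 2.31, Zmat3 and Ephx1 near 1.1, and p53 with its 3 inhibitors lies between -0.08 and 0.16.

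Of the 11 calls, 4 were kept in each of the 15 alternatives tried, 6 of which leave out 1 library each: Phlda3, Zmat3, Ephx1 and Ccng1. The count of called genes was 5, 4 and 9 when non-radiated library 1, 2 or 3 was left out, where 2.796%, 2.23% and 4.08% of all genes were called higher. It was 4 without radiated library 1, 7 without radiated library 2 and 5 without radiated library 3, where the shares of all genes were 2.27%, 3.57% and 4.85%. In the fit without radiated library 3 the share of all genes was thus above the 4.56% of the 6 libraries, while the count among the 34 was lower. It was 5 when libraries were scaled by their totals alone, where AY036118 enters the scaling and 4.55% of all genes were called higher. With the replicate number as a block it was 10 higher and 0 lower, against 5.51% and 3.39% of all genes.

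Trp53 was at 58.2, 58.4 and 59.7 CPM in non-radiated libraries 1 to 3 and at 59.9, 62.8 and 61.0 CPM in radiated libraries 1 to 3. The groups lay close together without overlapping, and the difference did not pass the test (log2 fold change 0.06, 95% interval -0.05 to 0.17, edgeR adjusted p 0.560). p53 is controlled mainly through the stability of its protein, which RNA-seq does not measure. Mdm2, which encodes the ubiquitin ligase that marks p53 for destruction and is itself a p53 target, was at 84.4, 83.0 and 84.2 CPM in non-radiated and 92.6, 87.0 and 101 CPM in radiated libraries. Each radiated library lay above each non-radiated one, at 1.12-fold, and the adjusted p was 0.176 (edgeR). Mdm4, which blocks p53's activation domain, was at 353 ± 6.17 CPM in non-radiated and 356 ± 16.9 CPM in radiated libraries (mean ± SD, n = 3 each), with overlapping ranges and a log2 fold change of 0.01 (95% interval -0.12 to 0.14). Ppm1d, the phosphatase Wip1 that reverses damage signalling, was at 50.6 ± 3.53 and 47.9 ± 2.39 CPM (mean ± SD, n = 3 each), a log2 fold change of -0.08. None of these 4 genes passed the test.

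Within a library the ratio of Mdm2 to Mdm4 does not depend on how libraries are scaled. Its log2, per kilobase of gene length, was -0.54, -0.54 and -0.50 without radiation and -0.34, -0.46 and -0.34 after it. The ratio was higher in each radiated library, by 0.14 on the log2 scale. The two-sided exact permutation p was 0.10, the smallest that 20 labelings allow.

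Among the 7 genes of cell cycle and mitosis, Ccng1 and Plk2 rose and 5 did not pass the test. Ccng1 encodes cyclin G1, which recruits a phosphatase to Mdm2. It was at 67.5, 65.9 and 64.8 CPM in non-radiated and 91.7, 99.1 and 91.9 CPM in radiated libraries. The groups stood well apart, with a log2 difference of 0.51 ± 0.05 (SE) and an adjusted p of 0.000602 from edgeR. Plk2, a polo-like kinase, was at 6.61, 5.03 and 7.03 CPM in non-radiated and 9.14, 9.12 and 10.02 CPM in radiated libraries, with a log2 difference of 0.59 ± 0.14 (SE) and an adjusted p of 0.0308 from edgeR. Its lowest value was in non-radiated library 2. Of the 6 fits without 1 library, Plk2 was called when non-radiated library 3 was left out, and the adjusted p over the 6 ran from 0.0359 to 0.0853.

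The other 5 genes of that role cover arrest and the mitotic spindle. Btg2, an antiproliferative partner of the mRNA deadenylase, had the highest level per kilobase of the 34 genes and stood at 217 ± 3.65 CPM in non-radiated and 225 ± 15.7 CPM in radiated libraries (mean ± SD, n = 3 each). Gadd45a, a growth arrest and damage response gene, was at 45.6 ± 4.004 and 43.8 ± 0.529 CPM (mean ± SD, n = 3 each). Exons of E230016M11Rik lie opposite 19.1% of the exon bases of Gadd45a, with 1433 counts over all libraries against 10633 for Gadd45a. The 95% intervals of Btg2 and Gadd45a reached up to 0.19 and 0.10 on the log2 scale. Of the mitotic genes Psrc1, Gtse1 and Ckap2, which encode spindle and microtubule proteins, the log2 fold changes were 0.25, 0.05 and -0.17, with edgeR adjusted p of 0.206, 0.799 and 0.261. The 8 markers of proliferating cells, among them Mki67 and Top2a, had a median log2 fold change of -0.10 and no called gene with edgeR.

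p53 binds DNA as a tetramer, at a pair of abutting decamers. That consensus, which reads the same on both strands, was searched in RefSeq promoter windows of build GRCm38.p6, from 250 bases before to 50 bases after each start, and no other motif was searched. The core C and G of each decamer had to be intact and at most 2 of the other 16 positions could depart from the consensus. Windows were found for 27 of the 34 genes, 36 windows in all, and 4 of these held a match (11.1%), against 107 of 32851 windows of all genes (0.326%). The genes were listed as direct targets of p53, so a higher share than that of all genes can follow from that choice. The 4 genes were Ccng1, Ckap2, Gtse1 and Rps27l. Among genes that rose, Phlda3, Ephx1, Aen, Plk2, Polk, Pltp, Dcxr and Gdf15 had windows without a match. No window was found for Zmat3, Pvt1, Trp53inp1, Perp, Xpc, Ddb2 and Rrm2b. These 7 genes, of which Zmat3 and Pvt1 rose, were therefore not searched. The matches are shown with 5 bases on each side, 5′ to 3′ on the gene's strand, because they let 1 gene that rose be set beside 3 that did not pass the test. Capitals mark the 20 bases of the match.
Ccng1: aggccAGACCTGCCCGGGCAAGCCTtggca
Ckap2: tctgaAGACATGTCCTGACTTGTCAagcct
Gtse1: accggGAGCAAGTTGGGGCTTGCCTctgac
Rps27l: atggcGGGCTTGTTGAGACTTGTCCgggcg

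The Ccng1 match lies on the minus strand at chr11:40755462-40755481, 195 to 176 bases before the start and outside annotated exons, and 1 position departs from the consensus. The Ckap2 match, at chr8:22186003-22186022 on the minus strand, is 203 to 184 bases before the start, also outside exons, with 2 positions off. The Gtse1 match, at chr15:85859945-85859964 on the plus strand, lies in an annotated exon, with 1 position off. It spans the start of a second RefSeq window, downstream of the gene's start at 85859707, whose own window held no match. The Rps27l match, at chr9:66946296-66946315 on the plus strand, lies in an intron of the gene in GENCODE M21, before the start of another RefSeq transcript, with 1 position off. The log2 fold changes of the 4 genes were 0.51, -0.17, 0.05 and -0.02 in that order. A match is a run of letters and not a measured binding site, and sites in distant introns or enhancers were not searched. The upstream bases of the gene that rose and of Ckap2, as far as they lie outside exons, are given for comparison, with the match in capitals.
Ccng1, chr11:40755312-40755536: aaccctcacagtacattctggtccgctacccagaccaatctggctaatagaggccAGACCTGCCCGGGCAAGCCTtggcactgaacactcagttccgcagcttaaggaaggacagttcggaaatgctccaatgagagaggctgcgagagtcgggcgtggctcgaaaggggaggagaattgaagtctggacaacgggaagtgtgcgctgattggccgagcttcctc
Ckap2, chr8:22185820-22186069: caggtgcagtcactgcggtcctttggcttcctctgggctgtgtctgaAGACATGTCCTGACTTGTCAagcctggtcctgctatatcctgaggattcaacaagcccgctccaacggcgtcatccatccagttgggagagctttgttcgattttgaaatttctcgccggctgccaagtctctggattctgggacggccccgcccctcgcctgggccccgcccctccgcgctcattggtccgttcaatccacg

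Of the 6 genes of cell death and survival signalling, Phlda3 and Aen rose. Phlda3 (chromosome 1, 135766119 to 135769136) encodes a small lipid-binding protein that holds back the survival kinase Akt. It had 82, 63 and 107 counts in non-radiated and 456, 715 and 483 counts in radiated libraries, which is 2.25, 2.52 and 2.52 CPM against 12.0, 13.4 and 10.8 CPM. The groups stood far apart, and the log2 difference of 2.31 ± 0.13 (SE; adjusted p 1.43e-05 from edgeR) was the largest of the 34. By its p-value Phlda3 ranked 19 among all genes tested. Aen, an apoptosis-enhancing nuclease, was at 17.6, 19.3 and 21.6 CPM in non-radiated and 24.1, 24.7 and 24.7 CPM in radiated libraries. The log2 difference was 0.33 ± 0.08 (SE), with an adjusted p of 0.0479 from edgeR, the call nearest to the threshold. Of the 6 fits without 1 library it held when non-radiated library 3 was left out, with adjusted p from 0.0188 to 0.162.

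The other 4 did not pass the test. Apaf1, the scaffold of the apoptosome, was at 167 ± 8.17 CPM in non-radiated and 159 ± 6.48 CPM in radiated libraries (mean ± SD, n = 3 each). Trp53inp1, a nuclear protein linked to autophagy and cell death, was at 245, 217 and 228 CPM against 253, 229 and 284 CPM, with overlapping ranges and an edgeR adjusted p of 0.341. Ei24, a protein of the endoplasmic reticulum, was at 44.1, 43.6 and 42.4 CPM against 47.5, 47.7 and 48.2 CPM, a narrow separation of 1.10-fold (edgeR adjusted p 0.169). Perp, a membrane protein of desmosomes, had 43 to 67 counts per library and was at 1.43, 1.996 and 1.44 CPM against 1.19, 1.25 and 0.964 CPM. It had the most negative log2 fold change of the 34, -0.50, with a wide 95% interval of -0.98 to -0.02 and an edgeR adjusted p of 0.218.

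**Figure D2:**
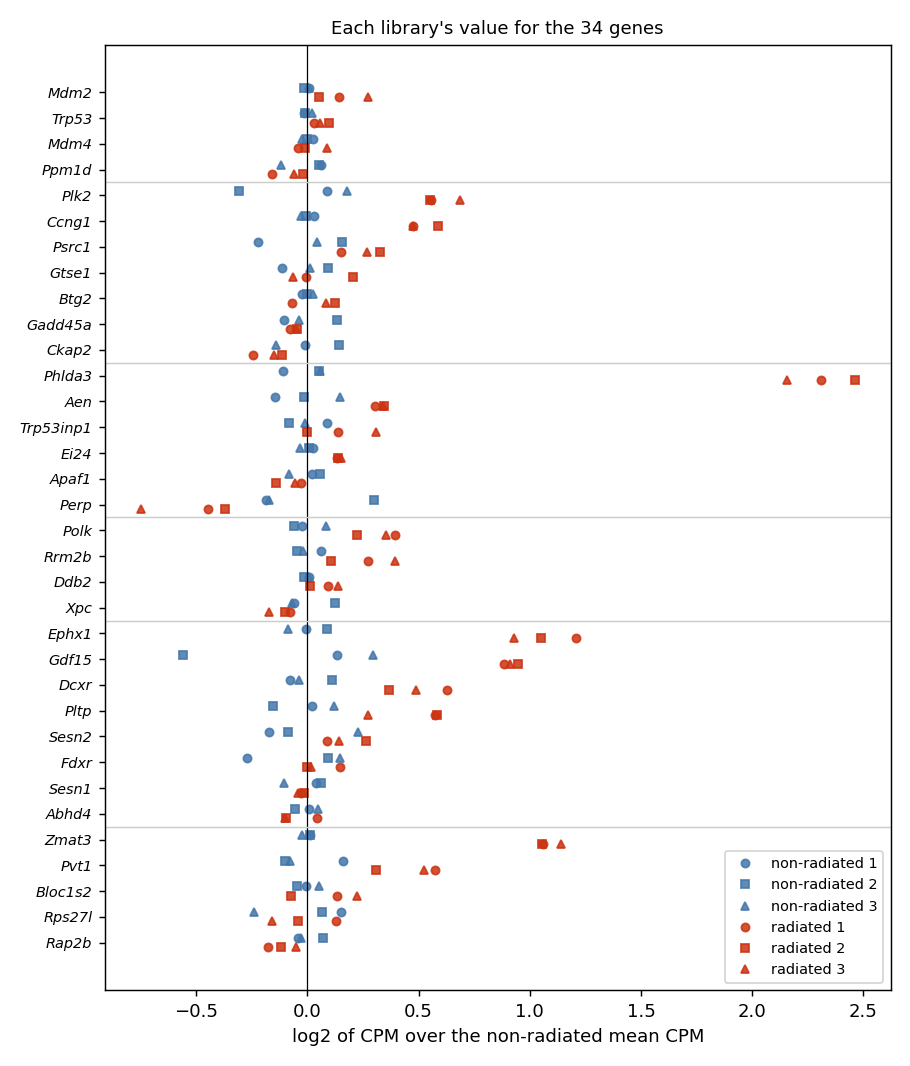
Each library's CPM relative to the non-radiated mean, on a log2 scale (x axis), for the 34 genes grouped by role. Blue points are the 3 non-radiated and red points the 3 radiated libraries. The red points of Phlda3, Zmat3, Ephx1 and Ccng1 stand clear of the blue ones, while those of Mdm4, Gadd45a and Rps27l overlap them.

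Among the 4 genes of DNA repair and nucleotide supply, Polk rose. It encodes a DNA polymerase that copies past damaged bases. Its levels were 18.1, 17.7 and 19.6 CPM in non-radiated and 24.2, 21.6 and 23.6 CPM in radiated libraries, with a log2 difference of 0.32 ± 0.08 (SE) and an adjusted p of 0.0385 from edgeR. The adjusted p ran from 0.0384 to 0.157 over the fits without 1 library, and the call was lost on leaving out non-radiated replicate 1 or 2, or radiated replicate 1 or 3. Rrm2b, the p53-controlled subunit of ribonucleotide reductase, was at 35.5, 32.9 and 33.5 CPM against 41.0, 36.6 and 44.7 CPM, with no overlap and an edgeR adjusted p of 0.0905. Of the alternatives, Rrm2b was called without radiated library 2 (edgeR adjusted p 0.0358) and with muscle markers as a covariate (0.0184), within a range of 0.0184 to 0.331 over all settings. The damage-recognition genes of nucleotide excision repair did not pass the test: Ddb2 was at 12.9 ± 0.117 and 13.6 ± 0.590 CPM, and Xpc at 44.7 ± 3.45 and 41.3 ± 1.40 CPM (mean ± SD, n = 3 each). In GENCODE M21, 23.8% of the exon bases of Ddb2 lie opposite exons of Acp2, so its counts are uncertain where counting did not use strand.

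Of the 8 genes of stress response and metabolism, 4 rose, and of these Ephx1 was called in each of the 15 alternatives. Ephx1 (chromosome 1, 180976210 to 181020904), the microsomal epoxide hydrolase that detoxifies reactive epoxides, was at 13.9, 14.8 and 13.1 CPM in non-radiated and 32.1, 28.8 and 26.5 CPM in radiated libraries. The groups stood far apart, and the log2 difference was 1.07 ± 0.09 (SE; adjusted p 0.000169 from edgeR). Gdf15, a secreted stress cytokine of the TGF-beta superfamily, had the lowest level per kilobase of the 34 genes, from 40, 17 and 52 counts without radiation and 70, 103 and 84 counts after it. In CPM these were 1.10, 0.679 and 1.23 against 1.85, 1.93 and 1.88, so the spread lay in the non-radiated group. The log2 difference of Gdf15 was 0.88 ± 0.22 (SE; adjusted p 0.0439 from edgeR), and of the 6 fits without 1 library it was called when non-radiated library 3 was left out (range of adjusted p 0.0469 to 0.115).

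Dcxr, a reductase of sugars and dicarbonyls, was at 4.33, 4.95 and 4.46 CPM in non-radiated and 7.08, 5.92 and 6.43 CPM in radiated libraries. Its groups did not overlap (log2 fold change 0.50, SE 0.12, edgeR adjusted p 0.0420), but the call was lost in each of the 6 fits without 1 library (edgeR adjusted p 0.0538 to 0.152) and with the replicate block (0.0577). Pltp, a phospholipid transfer protein of plasma lipoproteins, was at 18.8, 16.6 and 20.1 CPM against 27.6, 27.7 and 22.4 CPM. Radiated library 3 was the lowest of its group. The log2 difference of Pltp was 0.48 ± 0.11 (SE; adjusted p 0.0257 from edgeR), and its call was lost on leaving out non-radiated replicate 1 or 2, or radiated replicate 1 or 2, with adjusted p from 0.00883 to 0.105. Exons of Ctsa lie opposite 19.3% of the exon bases of Pltp, and Ctsa had 28370 counts over the 6 libraries against 5476 for Pltp.

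Sesn1 and Sesn2 encode sestrins, stress proteins that restrain growth signalling through mTORC1. Sesn1 was at 76.2, 77.4 and 69.1 CPM in non-radiated and 72.8, 73.4 and 72.0 CPM in radiated libraries. Sesn2 was at 16.7, 17.7 and 22.1 CPM against 19.996, 22.6 and 20.8 CPM. Both sets of values overlapped, with edgeR adjusted p of 0.839 and 0.447. The log2 ratio of Sesn1 to Sesn2 per kilobase was 2.05 ± 0.296 in non-radiated and 1.85 ± 0.0838 in radiated libraries (mean ± SD, n = 3 each; two-sided exact permutation p 0.40). The remaining genes of this role were Fdxr, the mitochondrial ferredoxin reductase, and Abhd4, a lipid hydrolase, with log2 fold changes of 0.06 and -0.05 and edgeR adjusted p of 0.856 and 0.725.

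Of the 5 genes of RNA, ribosome and trafficking, Zmat3 and Pvt1 rose. Zmat3 (chromosome 3, 32334792 to 32366014) encodes a zinc finger protein that binds RNA. It was at 18.3, 18.3 and 17.8 CPM in non-radiated and 37.8, 37.7 and 39.9 CPM in radiated libraries, with a log2 difference of 1.09 ± 0.06 (SE) and an adjusted p of 1.68e-05 from edgeR. Pvt1, a long non-coding RNA next to Myc, was at 19.1, 15.97 and 16.2 CPM against 25.5, 21.2 and 24.6 CPM, with a log2 difference of 0.47 ± 0.10 (SE) and an adjusted p of 0.0231 from edgeR. The Pvt1 call was lost on leaving out non-radiated replicate 2 or 3, or radiated replicate 1 or 3, with adjusted p from 0.0153 to 0.1004.

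Rps27l, a ribosomal protein variant, was at 27.3, 25.8 and 20.8 CPM in non-radiated and 26.9, 24.0 and 22.1 CPM in radiated libraries, with a log2 fold change of -0.02 (95% interval -0.27 to 0.24). Rap2b, a Ras-related GTPase, differed by -0.11 on the log2 scale (adjusted p 0.389 from edgeR), and 54.5% of its exon bases lie opposite exons of B430305J03Rik. Bloc1s2, a subunit of a complex for lysosome-related organelles, differed by 0.10 on the log2 scale (adjusted p 0.644 from edgeR) and resembles a pseudogene, Bloc1s2-ps, at 99.8% over 432 bases, which had 88 counts against 2982 for Bloc1s2. None of these 3 passed the test.

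A p that misses the threshold does not show that a gene did not change. For the 23 genes that were not called, the upper end of the 95% interval lay between -0.02 and 0.49 on the log2 scale. That is below the fitted rise of Ccng1, 0.51, but not below the smaller rises among the called genes. The upper ends of Psrc1 and Rrm2b, 0.49 and 0.45, lay above the fitted rises of Polk and Aen, 0.32 and 0.33. Those intervals are per gene and not adjusted over the list. Between the weakest call (Aen, adjusted p 0.0479) and the nearest gene outside (Rrm2b, 0.0905) no other of the 34 genes fell.

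**Figure D3:**
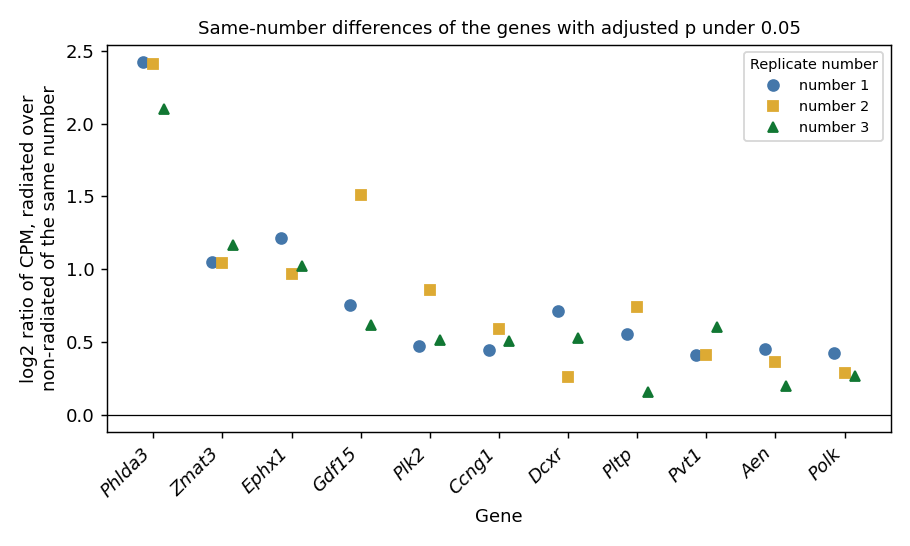
Log2 ratio of CPM, radiated over non-radiated library of the same replicate number (y axis), for the 11 genes with an adjusted p under 0.05 (x axis). The 33 ratios are above 0 by the choice of genes whose groups do not overlap, and what the plot shows is their spread, the lowest being 0.15 for Pltp in number 3 and the highest 2.42 for Phlda3 in number 1.

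The groups of the 11 called genes do not overlap, so any pairing of libraries gives positive ratios for them, and the ratios show only how far the pairs differ in size. Over all 34 genes, 18 were higher and 4 lower in the 3 pairs. The 4 were Perp, Ckap2, Rap2b and Xpc. The same shares over all genes were not computed, so whether these counts are unusual was not tested. For Phlda3 the log2 ratios were 2.42, 2.41 and 2.10 for numbers 1, 2 and 3, and for Zmat3 1.05, 1.04 and 1.16. Gdf15 varied most among the called genes, with 0.75, 1.51 and 0.62. As the median over the 34 genes relative to the non-radiated mean, radiated libraries 1, 2 and 3 stood at 0.13, 0.10 and 0.15.

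**Figure D4:**
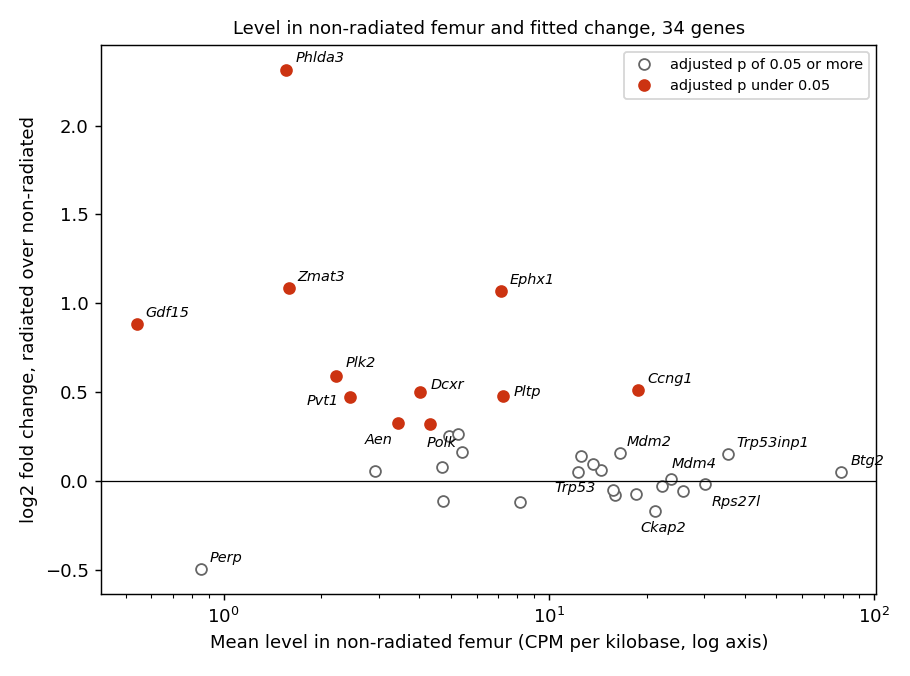
Mean level in non-radiated femur in CPM per kilobase (x axis, log scale) and log2 fold change (y axis) for the 34 genes. Filled points have an adjusted p under 0.05, and they lie between 0.540 and 18.8 CPM per kilobase, while the genes above 20 stay near 0 on the y axis.

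Levels between genes were compared per kilobase of gene length. In non-radiated femur they ran from 0.540 CPM per kilobase for Gdf15 to 79.2 for Btg2, with Trp53inp1 next at 35.5 and Trp53 at 14.5. Phlda3 and Zmat3, at 1.56 ± 0.1004 and 1.58 ± 0.0233 CPM per kilobase (mean ± SD, n = 3 each), did not differ beyond their spread in non-radiated femur, and in radiated femur they stood at 7.75 and 3.36. The median level in non-radiated femur was 3.43 CPM per kilobase for the 11 called genes and 14.5 for the 23 others. Across the 34 genes, which share the same libraries and are not independent replicates, the log2 level and the log2 fold change had a Pearson correlation of -0.46 and a Spearman correlation of -0.50. The non-radiated values enter both measures, with opposite sign in the fold change, which can by itself lower the correlation. Of the called genes, Gdf15 had the lowest level and the fewest counts, and Ccng1 had the highest level. A low level per kilobase did not always mean few counts, as Zmat3 had 666, 458 and 755 counts in non-radiated libraries.

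The wider p53 pathway was read from a list of 60 other genes, of which 58 passed the filter and Cdkn2a and Trp73 did not. Of the 58, 11 were called higher and 2 lower, with a median log2 fold change of 0.06 (edgeR, as above). Of all genes, 4.56% were called higher and 3.24% lower, so the count called lower was near the share of all genes. Among the largest rises were those of Eda2r and Tnfrsf10b, which encode death receptors, Cdkn1a, which encodes the cell cycle inhibitor p21, Trp53cor1, a non-coding RNA upstream of it, and Trp63, a p53 relative. Eda2r went from 0.707 to 7.73 CPM and Cdkn1a from 8.05 to 31.4 CPM on average, log2 fold changes of 3.46 and 1.96. Trp53cor1, Trp63 and Tnfrsf10b had log2 fold changes of 1.98, 1.82 and 1.06. Trp53cor1 shares 44.1% of its exon bases with a transcript on the opposite strand, and Trp63 had 2 to 33 counts per library. The 2 called lower were Thbs1, a matricellular protein stored in platelets, at 552 against 283 CPM (log2 fold change -0.96), and Igfbp3, a binding protein of insulin-like growth factors, at 7.36 against 4.74 CPM (-0.63). Without non-radiated library 2 or without radiated library 1, 7 were called higher, where the shares of all genes were 2.23% and 2.27%.

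**Figure D5:**
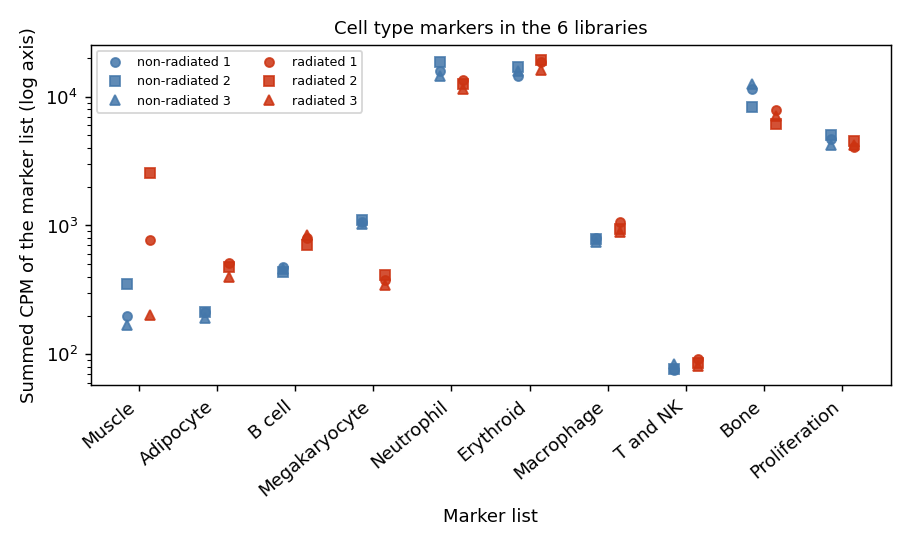
Summed CPM of 10 marker lists (y axis, log scale) in each of the 6 libraries. Blue points are non-radiated and red points radiated libraries. Megakaryocyte, neutrophil and bone markers are lower and adipocyte, B cell and macrophage markers higher in radiated libraries, and muscle markers run from 169 to 2543 CPM.

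Markers of several cell types moved with the groups. No marker of the 10 lists was at 0 in all libraries. The 8 adipocyte markers summed to 189.8 to 212 CPM in non-radiated and 395 to 515 CPM in radiated libraries, and 8 of 8 were called higher. Their median log2 fold change was 3.09, as the markers with the highest levels, which weigh most in the sum, rose less. The 8 B cell markers summed to 436 to 474 against 702 to 846 CPM (8 of 8 called higher), and the 8 macrophage markers to 746 to 806 against 887 to 1056 CPM (5 called higher, 1 lower). Megakaryocyte markers summed to 1029 to 1095 against 345 to 412 CPM, with 8 of 8 called lower, and of the 10 bone markers 3 were called lower (7 with the replicate block). The 8 neutrophil markers summed to 14439 to 18637 against 11513 to 13471 CPM, with a median log2 fold change of -0.37. The groups were separated for 8 of 8 of them, and 0 were called lower with edgeR (8 at an unadjusted p under 0.05, 4 with the replicate block). The part of these cell types in the changes of the 34 genes was not tested.

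Muscle markers did not separate the groups: their 12 genes summed to 198, 349 and 169 CPM in non-radiated and 765, 2543 and 201 CPM in radiated libraries, and none of the 12 was called with edgeR (11 with the replicate block), although 12 had an unadjusted p under 0.05. With the log2 of their summed level as a covariate, 8 of the 34 p53 genes were called higher, and the share of all genes called higher was 3.28%. Phlda3, Zmat3, Ephx1, Ccng1, Pvt1 and Plk2 remained, Rrm2b and Trp53inp1 became calls, and Pltp, Polk, Dcxr, Gdf15 and Aen were lost. The log2 fold changes of those 5 with the covariate were 0.37, 0.39, 0.53, 0.94 and 0.34.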

How the data were processed

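The authors deposited 1 table with raw counts and RPKM for 43346 genes in 6 libraries, per the file headers. STAR 2.5.2b, Subread featureCounts and genome build mm10 are named in the submitters' processing notes, and the kit was stranded per the labels' protocols. The annotation, the filters and the use of strand in counting are not given in the sources used here. The deposited counts are whole numbers. The deposited RPKM values were not used. Coordinates are those of the table, and 23 of the 34 genes had the same start and end in GENCODE M21.

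Counts were tested with edgeR 4.0.16 (R 4.3.3): filterByExpr (minimum count 10, minimum total 15) left 18757 genes, scaled by TMM, and glmQLFTest compared the groups with no other covariate. Standard errors were derived from the F statistic. Alternatives used DESeq2 1.42.0, limma 3.58.1 (voom), other scalings and filters, a muscle covariate, a replicate block, and fits without 1 library each. In counts simulated for 18757 genes, 94 of 100 genes changed 2-fold and 98 of 98 changed 4-fold were recovered among the 18556 tested, and 7 of 18358 unchanged genes were called. The simulation gave all genes the same dispersion and held no change under 2-fold, so it does not cover the smaller rises reported above.

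Deviations from the group mean in same-numbered libraries had correlations across genes of 0.17, 0.28 and 0.19, against -0.17 to -0.01 for different numbers. Such deviations cancel within a group, so positive values for same numbers force lower ones for different numbers. With so few libraries, these values cannot settle whether the numbers pair the libraries. The tests reported are unpaired, and the fit with the replicate block is an alternative, given where it changes a call or count. Whether a shared number stands for 1 animal is not stated in the labels. Replicates differed by more than sampling noise (chi-square per degree of freedom 18.1 to 633). That measure covers all genes on library totals, with AY036118 included, which took 32.9% of the counts in non-radiated library 2. The highest values, 633 and 536, were those of the pairs with that library. The same measure without AY036118, or for the 34 genes alone, was not computed. Transcripts were compared with BLAST 2.17.0 (at least 95% identity over 250 bases). The members, lists, tests and alternatives were chosen with earlier results of these data known. Named were all 34 genes and, of the 60 other pathway genes, up to 6 called in each direction with the largest changes, of which 1 is not reported here. Mki67, Top2a, Cdkn2a and Trp73 were named outside that rule. Perp and Gdf15, which had few counts, had SEs of 0.213 and 0.223 on the log2 scale, and the part of counting error in these was not tested.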

Additional observations from a re-analysis of the deposited data

How the results depend on the processing

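The positive direction of the 11 called genes was kept in each of the 15 alternatives. The count of called genes, 11, was 10 with DESeq2 size factors (4.43% of all genes called higher) and with the replicate block (5.51%). It was 8 with the muscle covariate (3.28%) and 5 with library totals alone (4.55%). Over the fits without 1 library each it ran from 4 to 9 (2.23% to 4.85%), where the group left with 2 libraries is assumed to vary like the other. No gene of the 34 was called lower in any setting. Few of all genes were called lower either, from 146 of 18757 with library totals alone to 854 of 18757 with DESeq2. A count of 0 of 34 is near such shares. The median log2 fold change of the 34 genes, 0.12, ran from 0.0854 to 0.13 without 1 library and was 0.31 with library totals alone, where the median of all genes was 0.19. The pathway genes called lower, 2, were 1 with library totals alone and with the muscle covariate and 1 to 2 without 1 library. Fewer of all genes were also called lower in the first 2 settings, 146 and 464 of 18757, against 607 in the fit reported. Pathway genes called higher, 11, ran from 7 to 11 without 1 library. Under library totals alone the sign turned positive for Ppm1d (0.12), Sesn1 (0.17), Xpc (0.0901), Gadd45a (0.15), Rps27l (0.18), Apaf1 (0.12), Ckap2 (0.0406), Rap2b (0.0858) and Abhd4 (0.13), all under the shift of all genes. With the muscle covariate Gtse1 was at -0.0825. Without 1 library the sign changed in some fits for Mdm4 (-0.0269 to 0.0387), Gtse1 (-0.0340 to 0.11), Gadd45a (-0.11 to 1.4e-05), Rps27l (-0.13 to 0.0631) and Fdxr (-0.0660 to 0.13), none of them called. The replicate block changed the call of Dcxr and of no other of the 34 genes, with a median of 0.12. The Mdm2 to Mdm4 and Sesn1 to Sesn2 log2 ratios kept their sign in each fit without 1 library. Where signs turned, the cause was not tested.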
